A study of Mus musculus with 6 samples.

Results

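The 10 genes described here encode the machinery of MHC class II antigen presentation. They are the rows of the deposited gene table named H2-Aa, H2-Ab1, H2-Eb1, H2-DMa, H2-DMb1, H2-DMb2, H2-Oa, H2-Ob, Cd74 and Ciita, out of 15415 listed genes, and all of them were found. RNA was sequenced from peritoneal macrophages (PEMs) of mice whose Tim-4 gene, Timd4, is flanked by loxP sites. The 3 knockout libraries are titled PEM-CKO, and their genotype is LysM-Cre; Tim-4 fl/fl. Cre is made there from the Lyz2 locus and cuts Tim-4 in myeloid cells. The 3 control libraries, PEM-Control, came from Tim-4 fl/fl mice, which have the same floxed alleles but no Cre, so that the deletion of Tim-4 and the presence of Cre at Lyz2 cannot be told apart. Per the study's methods, the mice were young adult males on the C57BL/6J strain and starch was injected into the peritoneum to recruit macrophages before the cells were washed out. Each of the 6 samples has the treatment entry lps, without dose or time. The study's methods give a dose and a time of LPS for activating PEMs, but do not name the sequenced samples there. Titles and genotype entries contradict each other on which group is the knockout, and the titles were followed here. The comparison asks what loss of macrophage Tim-4 does to these cells.

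MHC class II molecules are pairs of an alpha and a beta chain that show peptides from endosomes to CD4+ T cells. The invariant chain, encoded by Cd74, fills the groove of new class II molecules and guides them to endosomes, where cathepsins and legumain trim it to a short remnant, CLIP. H2-M, made from H2-DMa with H2-DMb1 or H2-DMb2, exchanges CLIP for peptide, and H2-O, made from H2-Oa and H2-Ob, inhibits H2-M and is known mainly from B cells, thymic epithelium and some dendritic cells. Ciita is the class II transactivator, a coactivator that interferon-γ induces and that is recruited to class II promoters by the RFX, NF-Y and CREB factors bound there. C57BL/6 mice make no alpha chain of the second surface class II molecule, I-E, so the product of H2-Eb1 has no partner to reach the surface with.

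The promoters of these genes carry a shared arrangement of short boxes, the X box and the Y box, on which the RFX and NF-Y factors assemble. They are shown because genes with this arrangement include both members that fell in the knockout libraries and members that did not. RefSeq promoters on GRCm38.p6, 250 bases before to 50 bases after a start site, were at hand for 7 of the 10 genes, and H2-Ab1, Cd74 and Ciita had none. After the promoters of the members had been looked at, an X box was written as CNNNNAAC and a Y box as TGATTGG, with 23 to 26 bases between them, and both strands were searched. The sequences below run 5′ to 3′ on the strand of the gene, with the X box and the Y box in capitals.
H2-Aa: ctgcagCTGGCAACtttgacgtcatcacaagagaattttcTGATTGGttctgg
H2-Eb1: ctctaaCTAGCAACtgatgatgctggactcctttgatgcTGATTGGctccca
H2-DMb1: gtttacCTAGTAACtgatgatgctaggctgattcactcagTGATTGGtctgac
H2-DMb2: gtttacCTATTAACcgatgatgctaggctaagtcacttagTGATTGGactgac
H2-Oa: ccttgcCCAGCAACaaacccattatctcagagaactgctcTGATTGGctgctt
H2-Ob: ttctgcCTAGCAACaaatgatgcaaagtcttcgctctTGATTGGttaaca
They lie at chr17:34287861-34287913 on the minus strand for H2-Aa and on the plus strand for the others, at chr17:34305767-34305818 for H2-Eb1, chr17:34153088-34153140 for H2-DMb1, chr17:34145117-34145169 for H2-DMb2, chr17:34092294-34092346 for H2-Oa and chr17:34238809-34238858 for H2-Ob. The Y box began between 45 bases before the start site in H2-Oa and 92 bases before it in H2-DMb2. The arrangement was present in 6 of the 7 member genes with a promoter and in neither window of H2-DMa. Over all promoters it was found in 43 of 32851 windows of the same length, or 0.131%, while the Y box alone was found in 7.82%. The motif was chosen on these promoters, so its share among the members is a description, and a match is not evidence of binding.

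Between 36170767 and 42217558 reads per library fell on the listed genes, and expression was given as FPKM, reads scaled to the length of the gene and to the counted reads of the library. Timd4 lay at 0.333, 0.394 and 0.246 FPKM in knockout libraries 1, 2 and 3 and at 19.5, 12.05 and 1.19 FPKM in control libraries 1, 2 and 3. Control 3 therefore stood far below the other controls in the targeted gene, though above every knockout library. Lyz2, the gene that carries Cre, lay at 41.4, 4656 and 106 FPKM in the knockout libraries against 7090 to 8482 FPKM in the controls, and knockout 2 stood apart. Because of these libraries, counts of called genes are also given without knockout 2 and without control 3. Differences were tested with limma on log2(FPKM + 1) over the 9030 genes with a mean of at least 1 FPKM in either group, at a Benjamini-Hochberg adjusted p of 0.05. Timd4 itself did not pass this threshold (log2 fold change -2.66, adjusted p = 0.072). It did with libraries of the same number fitted as pairs (adjusted p = 0.044). Nothing in the labels says that the libraries of a group came from separate animals, so p-values measure the spread between these samples only.

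All 10 genes passed the filter, H2-DMb2, H2-Oa, H2-Ob and Ciita through the control libraries alone, and all 10 had a log2 fold change below 0 in the knockout, though H2-DMb1 did not once FPKM were rescaled by the median of ratios or the recovered reads were fitted with voom. Of these, 4 fell past the threshold, namely H2-DMb2, H2-Oa, H2-Ob and Ciita, and none rose, where 4.74% of all tested genes fell and 2.57% rose. The same 4 genes were the ones whose knockout libraries all lay below every control library, a pattern that 23.0% of all tested genes showed, and the groups overlapped for the other 6. The median log2 fold change of the 10 genes was -0.72, against -0.11 over all tested genes. The 4 genes that fell were each under 10 FPKM in every library, and the abundant chains and Cd74 did not pass the test. In RNA from a whole cell preparation, fewer cells that express a gene and less RNA per cell cannot be told apart. The count of 4 genes was also 4 without control 1 or without control 3. Without the filter on low values, which these 4 genes passed only through the group where they are high, it was 3 of 10, with 446 of all genes called. It was 2 without knockout 3, and 0 without knockout 1, knockout 2 or control 2, where 30, 63 and 8 of all genes passed in place of 660. At an unadjusted limma p under 0.05 these 3 fits had 6, 4 and 4 of the 10 genes.

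**Figure D1:**
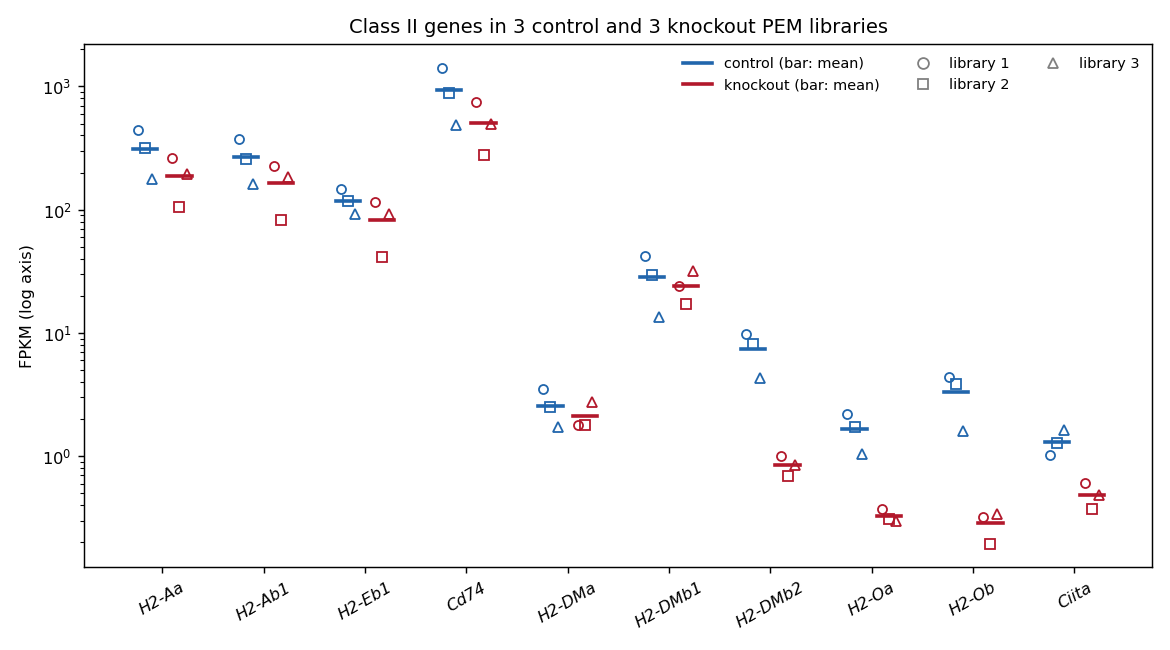
FPKM of the 10 class II genes (log axis) in 3 control (blue) and 3 knockout (red) libraries, with symbols for libraries 1, 2 and 3 and a bar at the group mean. For H2-DMb2, H2-Oa, H2-Ob and Ciita the knockout points lie below all control points, and for the other 6 genes the groups overlap.

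The surface chains were among the abundant transcripts of these cells and varied from library to library within both groups. H2-Aa, the alpha chain of the I-A molecule, was measured at 265.0, 105.4 and 196.3 FPKM in knockout libraries 1, 2 and 3 and at 444.8, 316.8 and 178.1 FPKM in control libraries 1, 2 and 3. Control 3 lay below knockout libraries 1 and 3, so the groups overlapped. The log2 fold change was -0.73 (SE 0.42, limma adjusted p = 0.299), with a 95% interval from -1.71 to 0.26. H2-Ab1, the beta chain that pairs with it, was at 228.0, 83.2 and 184.0 FPKM in the knockout and 377.5, 256.6 and 162.4 FPKM in the control libraries, with a log2 fold change of -0.72 (SE 0.43, adjusted p = 0.315). The pair moved together. The ratio of H2-Aa to H2-Ab1 kept between 1.07 and 1.27 in all 6 libraries, although H2-Aa itself ranged over 4.22-fold and H2-Ab1 over 4.54-fold.

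H2-Eb1, the beta chain of I-E, showed the same order of libraries at a lower level. Its values were 114.7, 41.4 and 92.6 FPKM in the knockout and 146.5, 116.8 and 92.4 FPKM in the control libraries. Knockout 3 and control 3 were nearly equal, and the log2 fold change of -0.61 (SE 0.37, adjusted p = 0.326) did not pass the test. Summed, the chains reached 608, 230 and 473 FPKM in the knockout and 969, 690 and 433 FPKM in the control libraries.

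Cd74 was the most abundant of the 10 genes and ranked 75 of 15415 listed genes by mean FPKM. It was measured at 741, 277.9 and 495.6 FPKM in the knockout against 1417, 886.6 and 483.3 FPKM in the control libraries. Its mean was 505 ± 232 FPKM (SD, n = 3) in the knockout and 929 ± 469 FPKM (SD, n = 3) in the control, a 1.84-fold difference whose log2 fold change of -0.86 (SE 0.46, adjusted p = 0.273) had a 95% interval from -1.95 to 0.23. A fall larger than this estimate lies inside that interval, as does no change. Relative to the summed chains, Cd74 stood at 1.22, 1.21 and 1.05 in the knockout and 1.46, 1.28 and 1.12 in the control libraries. This ratio differed by -0.15 on the log2 scale (two-sided exact permutation test, p = 0.4, n = 3 per group), where the smallest p that 3 libraries against 3 allow is 0.1. The difference ranged from -0.25 without control 3 to -0.05 without control 1 when each library was left out in turn.

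In all of these chain genes and in Cd74, knockout 2 had the lowest value of the 6 libraries and control 1 the highest, and control 3 was the lowest control. Knockout 2 is the library with the high Lyz2 value and control 3 the one with the low Timd4 value. The part that these libraries play in the class II levels was not tested. Without control 3 the log2 fold change of Cd74 was -1.26 and it was -0.48 without knockout 2 and -0.49 without control 1. Those of H2-Aa, H2-Ab1 and H2-Eb1 were -0.36, -0.29 and -0.18 without knockout 2, and -1.08, -1.03 and -0.77 without control 3. None of the 4 genes passed the threshold when any library was left out.

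H2-M, the peptide exchange factor, split between its genes. H2-DMb2 fell strongly, while H2-DMb1, the more abundant gene for the same beta subunit, stayed within the spread between replicates. H2-DMb2 was measured at 1.01, 0.688 and 0.848 FPKM in knockout libraries 1, 2 and 3 and at 9.89, 8.19 and 4.27 FPKM in control libraries 1, 2 and 3, from 60, 41 and 49 reads against 551, 450 and 218 reads. Every knockout library lay far below every control library. The control mean was 8.77 times the knockout mean, and the log2 fold change of FPKM + 1 was -2.13 (SE 0.26, adjusted p = 0.011). H2-DMb1 was at 24.0, 17.1 and 31.7 FPKM in the knockout against 41.9, 29.5 and 13.5 FPKM in the control libraries. Its lowest value of all 6 was in control 3, and the log2 fold change of -0.12 (SE 0.40, adjusted p = 0.869) had a 95% interval from -1.07 to 0.83. With FPKM rescaled by the median of ratios, which moved the median of all genes from -0.11 to 0.01, the value for H2-DMb1 turned to 0.02.

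The ratio of the 2 beta genes separated the groups. H2-DMb2 stood at 0.0421, 0.0403 and 0.0268 of H2-DMb1 in the knockout and at 0.236, 0.278 and 0.316 of it in the control libraries. It differed by -2.94 on the log2 scale (exact permutation test, two-sided p = 0.1, the smallest this design allows). The highest ratio was in control 3, the library in which both genes were lowest among the controls. These genes are near copies: on GRCm38, 22.7% of the 50-base stretches of H2-DMb1 transcripts also occur in H2-DMb2, and 21.2% of those of H2-DMb2 occur in H2-DMb1. How the authors counted reads that match both is not given in the sources used here, and H2-DMb1 had 925 to 1664 reads in the knockout libraries where H2-DMb2 had 41 to 60. Even a small share of H2-DMb1 reads counted for H2-DMb2 could thus make up much of its knockout level, and the ratio of the pair is uncertain to that extent. H2-DMa, the alpha subunit, was at 1.81, 1.78 and 2.76 FPKM in the knockout and 3.52, 2.50 and 1.71 FPKM in the control libraries, with overlapping groups and a log2 fold change of -0.18 (SE 0.22, adjusted p = 0.617). Its reads and FPKM imply a gene length of 8326 bases, while its longest transcript in GENCODE on GRCm38 has 2005 bases, so its level cannot be set beside those of other genes, and 8.43% of its 50-base stretches are shared with Brd2. What its counted gene model holds, and how that bears on its change, was not tested.

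**Figure D2:**
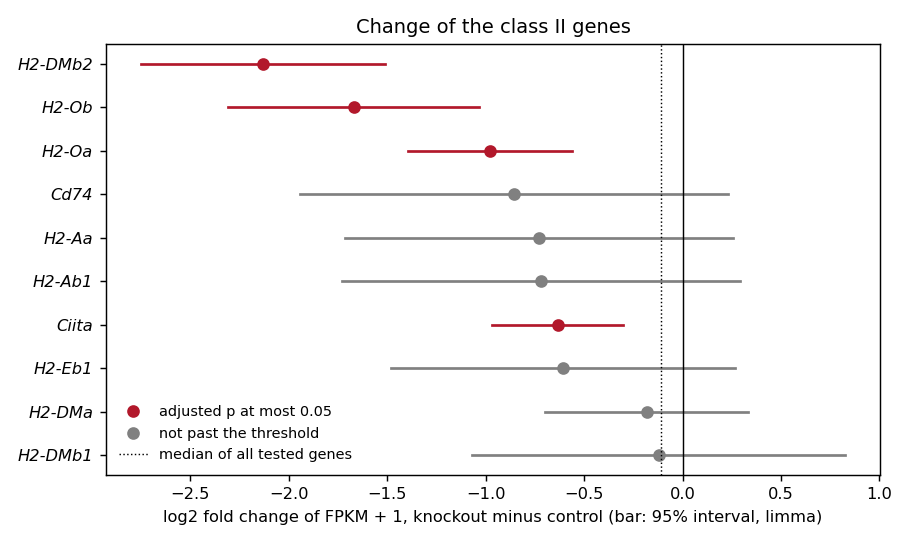
Log2 fold change of FPKM + 1 (knockout minus control) of the 10 class II genes with 95% intervals from limma, unadjusted for the number of genes. The intervals of the 4 genes past the threshold (red) end below 0, with H2-DMb2 at -2.13 and Ciita at -0.63, and those of the other 6 (grey) span 0. The dotted line is the median of all tested genes, -0.11.

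H2-O, the inhibitor of H2-M, fell in both of its chains. H2-Oa was measured at 0.370, 0.310 and 0.300 FPKM in the knockout against 2.20, 1.72 and 1.04 FPKM in the control libraries, from 19, 16 and 15 reads against 106, 82 and 46 reads. H2-Ob was at 0.322, 0.195 and 0.339 FPKM in the knockout against 4.40, 3.89 and 1.59 FPKM in the control libraries, from 41, 25 and 42 reads against 526, 459 and 174 reads. For both chains the highest knockout value was well below control 3, the lowest control. The control mean was 5.06 times the knockout mean for H2-Oa and 11.5 times for H2-Ob. With 1 FPKM added, which shrinks the change of genes as low as these, the log2 differences were -0.98 (SE 0.18, adjusted p = 0.025) for H2-Oa and -1.67 (SE 0.27, adjusted p = 0.020) for H2-Ob. Of the 50-base stretches of H2-Oa, 15.5% are shared with the overlapping gene BC051537, so its reads are uncertain to that extent. H2-Oa lost its call in the voom fit of the reads recovered from the FPKM (log2 fold change -2.09, adjusted p = 0.051).

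Relative to H2-M, the H2-O transcripts were several-fold scarcer in the knockout. The summed FPKM of H2-Oa and H2-Ob was 0.0258, 0.0259 and 0.0181 of the summed FPKM of the 3 H2-M genes in knockout libraries 1, 2 and 3, and 0.119, 0.140 and 0.135 of it in control libraries 1, 2 and 3. The groups did not overlap, and control 3, which was low in H2-O and in H2-M, had a ratio between those of the other controls. The difference was -2.51 on the log2 scale (exact permutation test, two-sided p = 0.1, the smallest 3 libraries against 3 allow). It ranged from -2.60 to -2.34 when each library was left out in turn. The H2-M sum holds H2-DMa, whose level cannot be set beside those of other genes. With H2-DMb1 alone as the measure of H2-M, an alternative added after the data were seen, the difference was -2.80.

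**Figure D3:**
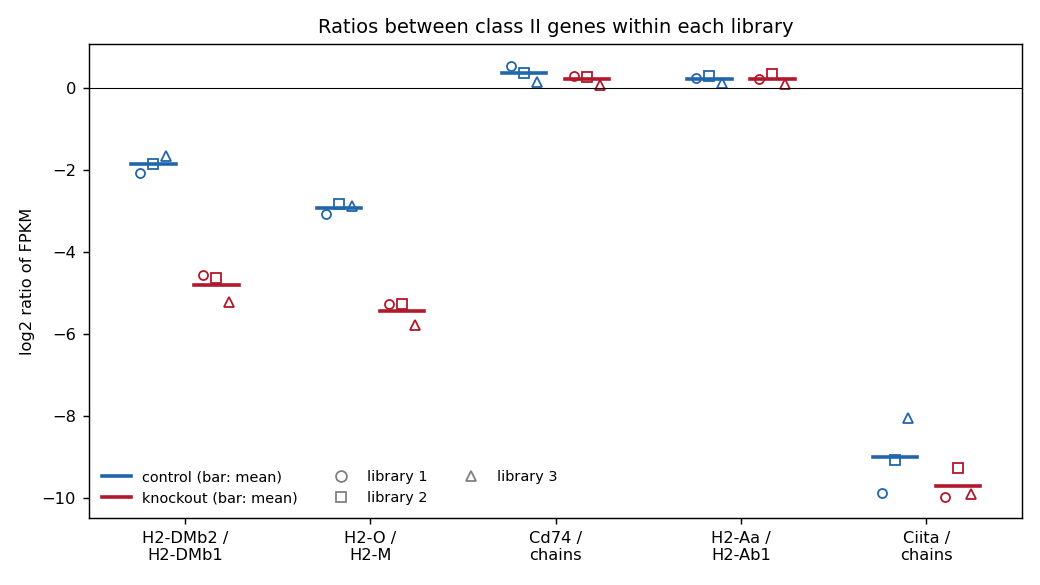
Log2 ratio of FPKM within each library for 5 pairs of class II genes or sums, in control (blue) and knockout (red) libraries, with a bar at the group mean. H2-DMb2 to H2-DMb1 and H2-O to H2-M separate the groups, by -2.94 and -2.51, and the ratios of Cd74 to the chains, H2-Aa to H2-Ab1 and Ciita to the chains overlap.

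Ciita, the transactivator of the other genes, fell by less. It was measured at 0.601, 0.373 and 0.487 FPKM in the knockout against 1.03, 1.28 and 1.63 FPKM in the control libraries, from 247, 154 and 195 reads against 398, 488 and 577 reads. The groups did not overlap, the control mean was 2.70 times the knockout mean, and the log2 fold change of FPKM + 1 was -0.63 (SE 0.14, adjusted p = 0.043). This call was close to the threshold. With libraries of the same number fitted as pairs it had an adjusted p of 0.056, and without the filter on low values it had one of 0.054.

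Among the controls, Ciita ran in the opposite order to its target genes. Control 3 had the highest Ciita value and the lowest of the 3 control values in each of the other 9 genes. The ratio of Ciita to the summed chains was 0.00106, 0.00186 and 0.00377 in the control and 0.000989, 0.00162 and 0.00103 in the knockout libraries, which overlapped (log2 difference -0.72, exact permutation test, two-sided p = 0.2). When each library was left out in turn, this difference ranged from -1.16 without control 1 to -0.25 without control 3. A change of Ciita different from that of the chains was therefore not shown. The SE of the log2 fold change of FPKM + 1 was 0.14 for Ciita and 0.37 to 0.43 for the chains. The added 1 FPKM shrinks the spread of a gene as low as Ciita, so these SEs cannot be set side by side.

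H2-Eb2, a further class II beta gene that is not one of the 10, has the same arrangement of boxes in its promoter. It was at 0.334, 0.117 and 0.186 FPKM in the knockout and 1.93, 2.48 and 1.14 FPKM in the control libraries. The control mean was 8.72 times the knockout mean. The log2 fold change of FPKM + 1, which shrinks the change of so low a gene, was -1.21 (SE 0.19, adjusted p = 0.020). H2-Eb2 lost this call without knockout 1, knockout 2 or control 2. It too passed the filter through the control libraries alone. Its ratio to H2-Eb1 differed by -2.57 on the log2 scale (exact permutation test, two-sided p = 0.1). H2-DMb2, H2-Oa, H2-Ob and H2-Eb2 fell with the X and Y boxes in their promoters, and H2-Aa, H2-Eb1 and H2-DMb1, which have the boxes too, did not pass the test.

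The 4 genes that fell moved beside markers of B cells, which express class II, H2-O and Ciita. Of 13 B cell symbols listed, 10 were in the table and 8 passed the filter, and of these 7 fell past the threshold, among them Cd79a, Cd79b, Ms4a1, Pax5, Blk and Fcmr, and 6 of the 7 passed the filter through the control libraries alone. With voom on the recovered reads the count was 3, with 7 at an unadjusted p under 0.05. In limma it was 4 of 10 without the filter on low values, 0 without knockout 1 or control 2, 1 without knockout 2, 4 without knockout 3, 5 without control 1 and 7 without control 3, with 7 at an unadjusted p under 0.05 in each fit that leaves out a library. The exception was Cd22, whose log2 fold change was 0.01 (adjusted p = 0.979). The summed FPKM of the markers lay between 11.6 and 12.9 in the knockout and between 39.0 and 141 in the control libraries, and none was at 0 in every knockout library. Without Cd22, which made up a large share of the knockout sum, the sums were 3.37 to 6.43 FPKM against 33.6 to 131 FPKM. Cd79a, a part of the B cell receptor, was at 2.83, 1.54 and 2.63 FPKM in the knockout and 57.6, 33.7 and 15.3 FPKM in the control libraries (log2 fold change -3.29, adjusted p = 0.012). Control 3 was the lowest control for Cd79a as for H2-DMb2, H2-Oa and H2-Ob, but the highest for Ciita. The ratio of H2-Ob to Cd79a lay at 0.114, 0.127 and 0.129 in the knockout and 0.0763, 0.115 and 0.104 in the control libraries, which overlapped, with a log2 difference of 0.34. Against Cd79a the other ratios were higher in every knockout library than in any control, by 0.72 on the log2 scale for H2-DMb2, 1.50 for H2-Oa and 2.35 for Ciita (exact permutation test, two-sided p = 0.1, the smallest this design allows). The part of B cell RNA in the fall of these genes was not tested.

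**Figure D4:**
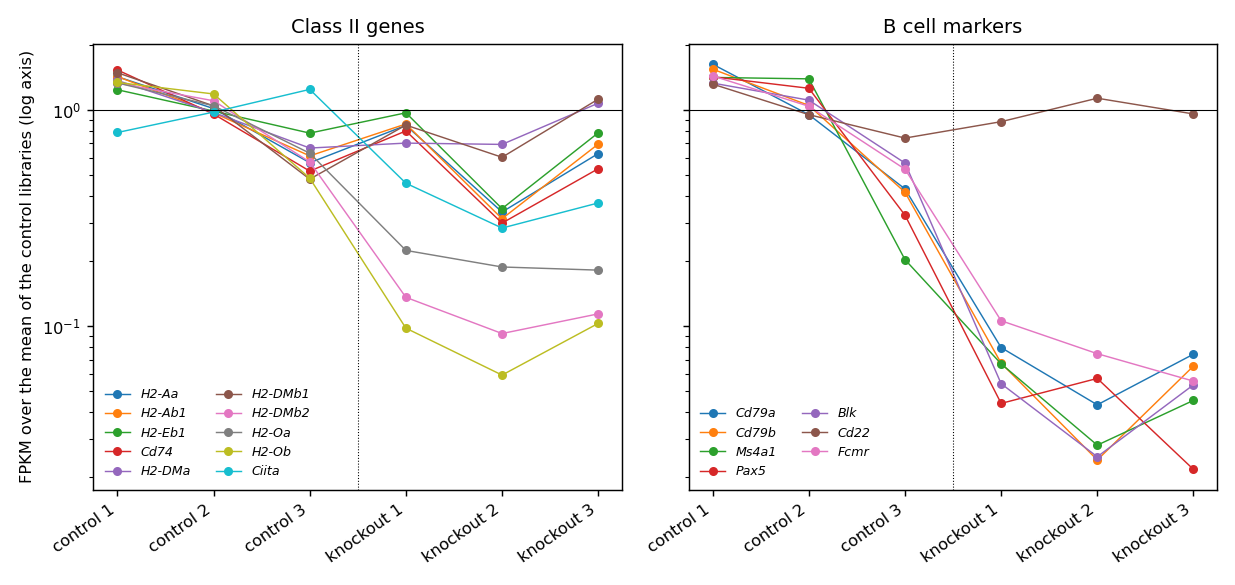
FPKM of each gene divided by its mean in the control libraries (log axis), for the 10 class II genes (left) and 7 of the B cell markers past the filter (right), in each of the 6 libraries. H2-DMb2, H2-Oa and H2-Ob lie under all control points in the knockout as all of these B cell markers but Cd22 do, while Ciita is highest in control 3, where those markers are lowest among the controls.

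Other cell types that carry class II were also checked. The preparation had the macrophage markers Adgre1, Cd68 and Csf1r in every library, and of 6 such markers 1 rose, the Fc receptor Fcgr1. Adgre1 lay at 235 to 364 FPKM in the knockout and 310 to 329 FPKM in the control libraries. The groups did not overlap for Csf1r, at 83.3 to 143 FPKM in the knockout and 151 to 180 FPKM in the control libraries (log2 fold change -0.71, adjusted p = 0.090), nor for Cd68, at 1572 to 1685 FPKM against 816 to 1379 FPKM (0.62, adjusted p = 0.099), and neither passed the threshold. Of 8 markers of large resident peritoneal macrophages, 7 were tested and 4 fell, Icam2, Vsig4, Prg4 and Alox15. Timd4, the deleted gene, is in that list and cannot mark these cells here. The list had a summed level of 40.1 to 56.2 FPKM in the knockout and 73.1 to 175 FPKM in the control libraries. Most of the knockout sum was Cd93, whose log2 fold change of 0.82 (adjusted p = 0.052) passed the threshold with the replicate block (adjusted p = 0.034). Without Cd93 and Timd4 the sums were 4.53 to 9.42 FPKM against 43.3 to 138 FPKM. Of 8 markers of small peritoneal macrophages, which are known as cells rich in class II, 4 were tested and 2 fell, Retnla and Irf4 (1 with voom), with a summed level of 22.1 to 40.2 FPKM against 121 to 3458 FPKM. Retnla carried that sum, and without it the levels of 13.4 to 25.2 FPKM in the knockout and 22.7 to 30.3 FPKM in the control libraries overlapped. Irf4, a factor of B cells as well, was at 1.62, 0.722 and 0.658 FPKM in the knockout and 6.84, 5.11 and 2.96 FPKM in the control libraries. Of 10 dendritic cell markers, 2 passed the filter, Ccr7 and Itgax, and neither changed past the threshold in limma or voom (1 had an unadjusted p under 0.05). Ccr7 was at 2.33 to 5.82 FPKM in the knockout and 7.40 to 10.5 FPKM in the control libraries, without overlap (log2 fold change -1.08, adjusted p = 0.055). Itgax went the other way with overlapping groups (0.79, adjusted p = 0.257). The defining markers Flt3, Zbtb46, Xcr1 and Clec9a were at most at 0.373 FPKM in any library. None of the T cell markers passed the filter, and both tested markers of eosinophils and mast cells, Cpa3 and Kit, fell. Both passed the filter through the control libraries alone, and 1 was called without the filter, with the replicate block, and without any knockout library or control 2. Icam2 and Alox15 passed the filter through the control libraries alone, and without it 3 large macrophage markers fell. Leaving Timd4 aside, the number that fell was also 3 with voom, 1 without knockout 1, 2 without knockout 2, 0 without control 2 (4 at an unadjusted limma p under 0.05), 4 with the replicate block and 5 without control 3. For the small macrophage markers it was 0 without the filter (3 at an unadjusted limma p under 0.05), 0 without any one knockout library or control 2 (2 in each), and 3 without control 3. The part of these cells in the class II levels was not tested.

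The factors that bind class II promoters did not move past the threshold. Rfx5, Rfxank and Rfxap, the subunits of RFX, Nfya, Nfyb and Nfyc, those of NF-Y, and Creb1 gave 0 calls among 7 tested in limma, with log2 fold changes between -0.31 and 0.00 and a median of -0.21. None had an unadjusted p under 0.05 in limma, and voom on the recovered reads also gave 0 calls. Rfx5, which binds the X box, was at 0.741, 0.930 and 0.657 FPKM in the knockout and 1.58, 1.17 and 0.748 FPKM in the control libraries. Its groups overlapped at control 3. For 2 of the 7 factors, Rfxank and Creb1, every knockout library lay below every control library, a pattern that 23.0% of all tested genes showed.

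On the route from interferon-γ to Ciita, 2 of 7 tested genes rose, whereas Ciita fell. The count was 1 without the filter on low values, knockout 2 or knockout 3, 0 without knockout 1 or control 2 (2 at an unadjusted limma p under 0.05 in each) and 2 without control 3. Irf1, which binds a Ciita promoter after interferon-γ, was at 187, 180 and 162 FPKM in the knockout and 75.3, 65.6 and 76.7 FPKM in the control libraries. Every knockout library lay above every control library, with a log2 fold change of 1.27 (SE 0.13, adjusted p = 0.007). Usf1, a partner factor at the same promoter, rose by 0.75 (SE 0.15, adjusted p = 0.033). The receptor genes Ifngr1 and Ifngr2 and the kinases Jak1 and Jak2 had log2 fold changes between -0.31 and 0.28, and none passed.

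Proteases that cut the invariant chain were among the genes that rose, while Cd74 and the chains did not pass the test. Of 7 genes of endosomal processing, 4 rose and none fell. The count was 3 with voom, 2 with the replicate block (Ctsl and Lgmn), without the filter on low values, with at least 10 reads in every library or without knockout 3, and 1 without knockout 1. It was 0 without knockout 2 or control 2 (4 at an unadjusted limma p under 0.05 in each) and 4 without control 3. Ctsl, a cathepsin that cleaves the invariant chain in some cells, was at 994, 1378 and 1509 FPKM in the knockout and 466, 523 and 461 FPKM in the control libraries (log2 fold change 1.40, SE 0.18, adjusted p = 0.011). Lgmn, the asparaginyl endopeptidase legumain, rose by 1.05 (SE 0.18, adjusted p = 0.021). Ctss, the main invariant chain protease of macrophages and B cells, rose by 0.58 (SE 0.12, adjusted p = 0.033), and Ctsb rose by 0.59 (adjusted p = 0.042). Ctsd, Ifi30, a thiol reductase of endosomes, and Cst3, a cathepsin inhibitor, had log2 fold changes of 0.34 to 0.41 and did not pass.

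Of 4 tested genes that set how long class II stays at the surface, 1 rose. None was called without the filter on low values, knockout 1, knockout 2 or control 2 (1 at an unadjusted limma p under 0.05 in each), and without control 3 there was 1 call in each direction. Cd83, which protects class II from ubiquitination, was at 46.8, 58.8 and 27.6 FPKM in the knockout and 18.0, 17.3 and 12.4 FPKM in the control libraries, with a log2 fold change of 1.38 (SE 0.28, adjusted p = 0.034). Marchf1, the ligase that ubiquitinates class II, was at 3.88, 3.35 and 4.17 FPKM in the knockout and 9.40, 9.88 and 1.93 FPKM in the control libraries. Control 3 was below every knockout library there, and the difference of -0.53 (SE 0.48, adjusted p = 0.497) did not pass with all 6 libraries. Without control 3, Marchf1 was the gene called lower.

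None of the class I counterparts passed the test without the replicate block. Among 9 of them, H2-K1, H2-D1, B2m, Tap1, Tap2, Tapbp, Nlrc5, Psmb8 and Psmb9, 0 passed the threshold in limma, and all 9 fitted log2 fold changes were above 0 (8 of 9 without knockout 1 or without control 3), with a median of 0.45 and the smallest at 0.04 for H2-K1. Of these, 4 had an unadjusted p under 0.05, and voom gave 0 calls too. That count of 4 was 0 without knockout 1, knockout 2 or control 2, 1 without control 3, 4 without knockout 3 and 8 without control 1. Nlrc5, the class I transactivator and a relative of Ciita, was at 59.0, 52.9 and 35.5 FPKM in the knockout and 38.1, 26.1 and 20.03 FPKM in the control libraries. Its difference of 0.80 (SE 0.27, adjusted p = 0.116) did not pass, but was called with the replicate block (adjusted p = 0.029). The difference between the class I and the class II genes was not tested.

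**Figure D5:**
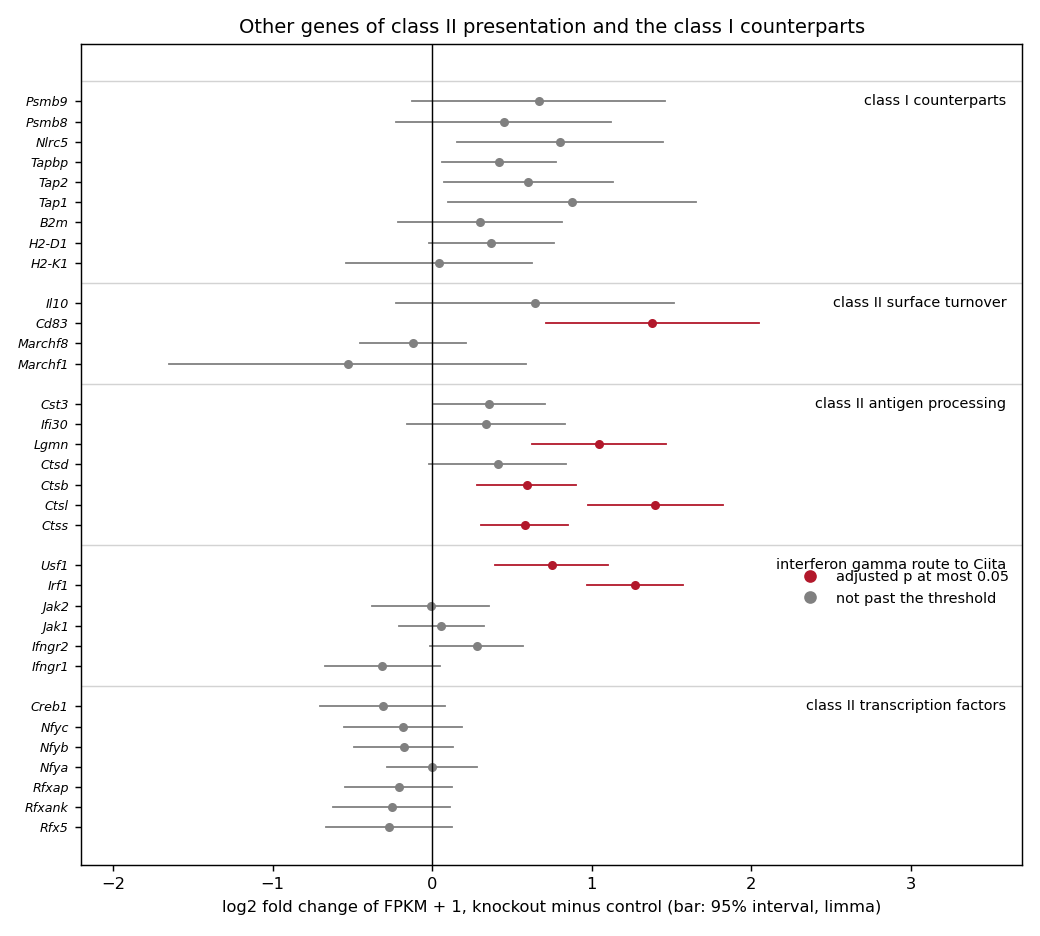
Log2 fold change of FPKM + 1 (knockout minus control) with 95% intervals from limma for other genes of the class II pathway and the class I counterparts, grouped by role. The genes past the threshold (red), Irf1, Usf1, Ctss, Ctsl, Ctsb, Lgmn and Cd83, all lie above 0.

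Over the 6 libraries, the pattern shared by the chains and Cd74 was compared with that of other genes. The measure was Pearson's r between log2(FPKM + 1) of a gene and the mean of the same value over H2-Aa, H2-Ab1, H2-Eb1 and Cd74, among 5455 other genes with a mean of at least 5 FPKM. The 10 closest genes included Zfp330 (r = 0.938), Adipor2, Ikbkb, Mki67, Sema4a, Smim3, Sash1, Hdac1 and Adora2b (r = 0.897). All of them were lower on average in the knockout, by -0.11 to -0.56 on the log2 scale, and none passed the threshold. Within the 10 class II genes, the 6 outside that mean had r between 0.47 for Ciita and 0.74 for H2-DMb1. The highest of 5455 correlations over 6 libraries are large by their selection, the points share their libraries and depth, and no test was made.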

How the data were processed

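The authors deposited 1 table of the comparison, with FPKM per library and, per group, a signal that is the mean read count after division by DESeq2 size factors. Columns of the authors' own comparison in the deposited table (a fold change ratio with its log2 value, a p-value, a q-value) were not used. The submitters' processing notes name the genome build mm9, and the aligner and counter are not given in the sources used here. Sequences and lengths are from GRCm38 and were matched by symbol.

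The FPKM and the group signal together gave back whole reads, and 100% of values came out whole within 0.001 in each library. No per-sample column was left out. FPKM with a pseudocount of 1 were fitted with limma 3.58.1 (lmFit, eBayes with a trend) in R 4.3.3, without a block, over genes with a mean of at least 1 FPKM in one group. All adjusted p-values of genes are limma's, adjusted over all tested genes. Ratios were compared by exact permutation in scipy 1.17.1. The script was tested on simulated data.

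The members, gene lists and ratios were chosen with earlier results of these data known. The genes named are the members, the genes of the lists that pass the threshold or stand beside a member, Timd4, Lyz2, and the 10 genes closest to the chains and Cd74. A few genes under these rules are not reported here. The ratios of H2-DMb2 to H2-DMb1, of H2-Eb2 to H2-Eb1 and to Cd79a were described with their group values seen.

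Libraries of the same number deviated together from their group means (correlations of 0.109, 0.110 and 0.304), but knockout 2 correlated more with control 1 (0.291) than with control 2. This check is the only source of a pairing. Alternatives were no filter, at least 10 reads in every library, a pseudocount of 0.1, the replicate block, rescaling by the median of ratios, voom on the recovered reads, an added fold threshold, and leaving out each library.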

Additional observations from a re-analysis of the deposited data

How the results depend on the processing

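Over 9030 genes 660 passed the threshold, and 4 of the 10 class II genes. With a log2 fold change of FPKM + 1 of at least 1 in size added as a condition, these counts were 346 and 2 (H2-DMb2 and H2-Ob). The added 1 FPKM shrinks the change of H2-Oa and Ciita, whose control means were 5.06 and 2.70 times the knockout means. Leaving out each library in turn gave 8 to 1333 genes in all and 0 to 4 class II genes. With the replicate block, 855 genes passed and Ciita was lost (adjusted p = 0.056), and the block changed no other call of a class II gene. Of the other lists, it moved the count of processing genes from 4 to 2, of class I genes from 0 to 1 and of mast cell markers from 2 to 1. Among large macrophage markers it left the number that fell at 4, Timd4 aside, and called Cd93 higher. The difference in the ratio of H2-O to H2-M, -2.51, is the same with the block by construction, and 3 pairs cannot give a sign-flip p below 0.25. No reversal was seen in 8 of the 10 genes. Leaving out libraries, H2-DMa ranged from -0.37 to 0.0011 and H2-DMb1 from -0.56 to 0.22. H2-DMa turned above 0 without control 1, and H2-DMb1 turned to 0.017 with rescaling, to 0.03 with voom, to 0.10 without knockout 2 and to 0.22 without control 1. In these fits the values were not called. The log2 fold change of H2-DMb2 ranged from -2.92 to -1.92 and its adjusted p from 4.05e-04 to 0.082, that of H2-Ob from -3.26 to -1.47 with an adjusted p up to 0.105, that of H2-Oa from -2.09 to -0.83 with one up to 0.123, and that of Ciita from -1.29 to -0.54 with one from 0.027 to 0.192. Rescaling moved the share of calls that were higher from 35.2% to 51.3% over all genes and left the count of class II genes at 4. With 3 libraries a group, the 95% interval of Cd74 reached from -1.95 to 0.23 because its values spread widely within both groups. H2-Oa rested on 15 to 19 reads in the knockout libraries. The cause of these shifts was not tested.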
